A study of Mus musculus with 12 samples.

Results

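Loss of the microRNA miR-34a was examined across 12 RNA sequencing libraries of mouse colon tumours, by setting the 6 libraries of tumours that lack it against the 6 libraries of tumours that have it. Those lacking it are 3 miR-34a deficient tumours, which have p53, and 3 double deficient tumours, which lack both. Those with it are 3 wt and 3 p53 deficient tumours. All 12 libraries of the series take part, and the split follows the genotype labels alone. p53 status entered as a second factor, so each pooled difference is the average of a difference in tumours with p53 (miR-34a deficient minus wt) and one in tumours without p53 (double minus p53 deficient). The table holds 21792 genes, of which 95 were 0 in every library, and 21322 whose mean over the 12 libraries reached 1 entered the tests.

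Every mouse was of the FvB strain and had 6 weekly injections of azoxymethane (AOM) into the abdomen, at 10 mg/kg each; the study ended at week 16, counted from the first injection. AOM is a carcinogen that causes colon tumours in mice. Per the labels the deletions are in intestinal epithelial cells (IEC), the cells that line the gut and give rise to these tumours, so vessels, connective tissue and immune cells in the same tissue piece are not described as deleted. The sources used here name neither the promoter that drives the deletion nor the age or sex of the mice. Whether the 3 libraries of a genotype come from 3 mice is also not stated. The p-values therefore cover the spread between libraries, which may in part be technical.

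miR-34a is a short RNA whose gene is switched on by the tumour suppressor p53 after DNA damage and other stress. It guides a silencing complex to messenger RNAs that carry a match to its seed in the 3′ untranslated region (3′ UTR), which lowers their translation and often their level. Known targets include cell cycle genes such as Cdk6 and Ccne2, survival genes such as Bcl2, receptors such as Met, Axl and the interleukin-6 receptor Il6ra, and the mesenchymal regulator Snai1. In colorectal tumours it is best known for a loop in which it holds down the interleukin-6 receptor and STAT3 signalling, and for restraining the change of epithelial cells to a mesenchymal state.

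The mature microRNA is printed first because its seed defines which messenger RNAs could pair with it. Mir34a lies on chromosome 4, 150068454 to 150068555, plus strand, and 4 mature mouse microRNAs in the RefSeq table (GRCm38.p6) have the seed GGCAGUG at positions 2 to 8, counted from the 5′ end. Other microRNAs with this seed may be missing from that table. The 3 others printed, and miR-34c-5p of the same family, come from genes that the labels do not describe as deleted. Capitals mark the seed.
mmu-miR-34a-5p: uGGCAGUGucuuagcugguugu
mmu-miR-34b-5p: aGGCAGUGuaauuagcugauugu
mmu-miR-449a-5p: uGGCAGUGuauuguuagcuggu
mmu-miR-449c-5p: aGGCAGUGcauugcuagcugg

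A messenger RNA can pair with this seed through CACTGCC (called 7mer-m8) or CACTGCCA (called 8mer, which contains the former), searched on the sense strand of the transcript. Matches to only a part of the seed were not searched, so a gene described as having no match may hold such a site. The sites below are those of the published targets whose values are described most closely, each as 22 bases of 3′ UTR (GENCODE M21, GRCm38) that include the match in capitals. 1 site is printed for each gene, the 8mer where there is one. Il6ra and Cdk6 each hold 3 further 7mer-m8 matches and Lef1 holds 1. All are written on the strand of the gene.
Il6ra, chr3:89869829-89869850 (minus): ttcctgctacacctCACTGCCA
Axl, chr7:25758611-25758632 (minus): ggacccaagctaggCACTGCCA
Inhbb, chr1:119416788-119416809 (minus): cagtcctgcctgctCACTGCCc
Ccne2, chr4:11203180-11203201 (plus): tgtctaaggagttaCACTGCCA
Cdk6, chr5:3522979-3523000 (plus): agctctgctgccgaCACTGCCA
Lef1, chr3:131223241-131223262 (plus): cccgaagacacagtCACTGCCA
Snai1, chr2:167542123-167542144 (plus): ctcaccctcctcctCACTGCCA

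The deposited values are normalized scores rounded to whole numbers, and library depth is unknown. They are used as log2(value + 1), and a difference is lacking minus having miR-34a on that scale, ± SE from limma, which understates the change of genes with low values. Trp53, the gene of p53, ran from 401 to 924 in the 6 libraries labelled as lacking p53 and from 3466 to 5120 in the other 6. With miR-34a loss it differed by 0.21 ± 0.17 (limma, Benjamini-Hochberg adjusted p = 0.638). Mir34a itself is not among the 12 symbols of the table that start with Mir, so its loss could not be checked here. Vil1, the brush border gene villin, had values from 16701 to 28444 without and from 20965 to 29871 with miR-34a. The 2 arms are not alike in every respect that the genotype labels leave out. Averaged on the log2 scale, 4 Y-linked genes were at or under 1 in 4 of 6 libraries lacking miR-34a and in 1 of 6 with it, and within tumours without p53 all 3 double deficient libraries (0.25 to 0.79) lay under all 3 p53 deficient ones (3.73 to 6.98). Xist, the RNA that coats the silenced X chromosome, made up 52.8% of the summed values in miR-34a deficient 1, 23.2% in wt 1 and 1.24% to 5.92% in double deficient tumours, against at most 0.00958% in p53 deficient tumours and 0.234% in the other 4 libraries. Each arm holds 1 library of a rarer run code. p53 deficient 2 stood apart in 6 posterior Hox genes (mean log2 of 8.40, against 11.7 to 15.6). The values also lack 1 direction of variation within genotypes, with 47.2% of its weight on double deficient 3, so the spread among double deficient libraries may be too small.

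Few genes separated the arms. Of 21322 genes 11 passed limma's test at an adjusted p under 0.05 (0.0516%), 7 higher (0.0328%) and 4 lower (0.0188%) without miR-34a. At an unadjusted p under 0.05 there were 2768 genes (13%), 1825 of them higher (8.56%) and 943 lower (4.42%), and the median difference over all genes was 0.04, with 55.7% of genes above and 44.3% below 0. In 339 genes (1.59%) the libraries did not overlap in the same direction within both p53 strata, higher in 240 (1.13%) and lower in 99 (0.464%). The number of changed genes was 4 without double deficient 3, 43 without wt 2 and between these without any other library.

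Of the 7 genes that rose, the largest difference was that of Rpl35a (ENSMUSG00000060636; GRCm38 chromosome 16, 33056453 to 33060189), which encodes a protein of the large ribosomal subunit. Its values were 912, 542 and 428 in wt and 4475, 6149 and 5453 in miR-34a deficient tumours, and 528, 588 and 619 in p53 deficient and 8262, 7922 and 8714 in double deficient tumours. Every library lacking miR-34a thus lay far above every library with it. The difference was 3.50 ± 0.19 (limma, adjusted p = 1.96e-06), or 11.3-fold. The genome holds many copies of ribosomal protein genes, and reads can be split between them. Rpl35a-ps5, a processed pseudogene that shares 59.5% of its 50-base windows exactly with Rpl35a, had values from 0 to 14 without and from 19 to 66 with miR-34a. It differed by -3.42 ± 0.59 and did not pass (adjusted p = 0.0684). The sum of Rpl35a and its copies, 7 genes chosen after values were seen, ran from 4491 to 8725 without and from 506 to 999 with miR-34a. It differed by 3.31 over both strata. How reads were split between these genes was not tested.

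**Figure D1:**
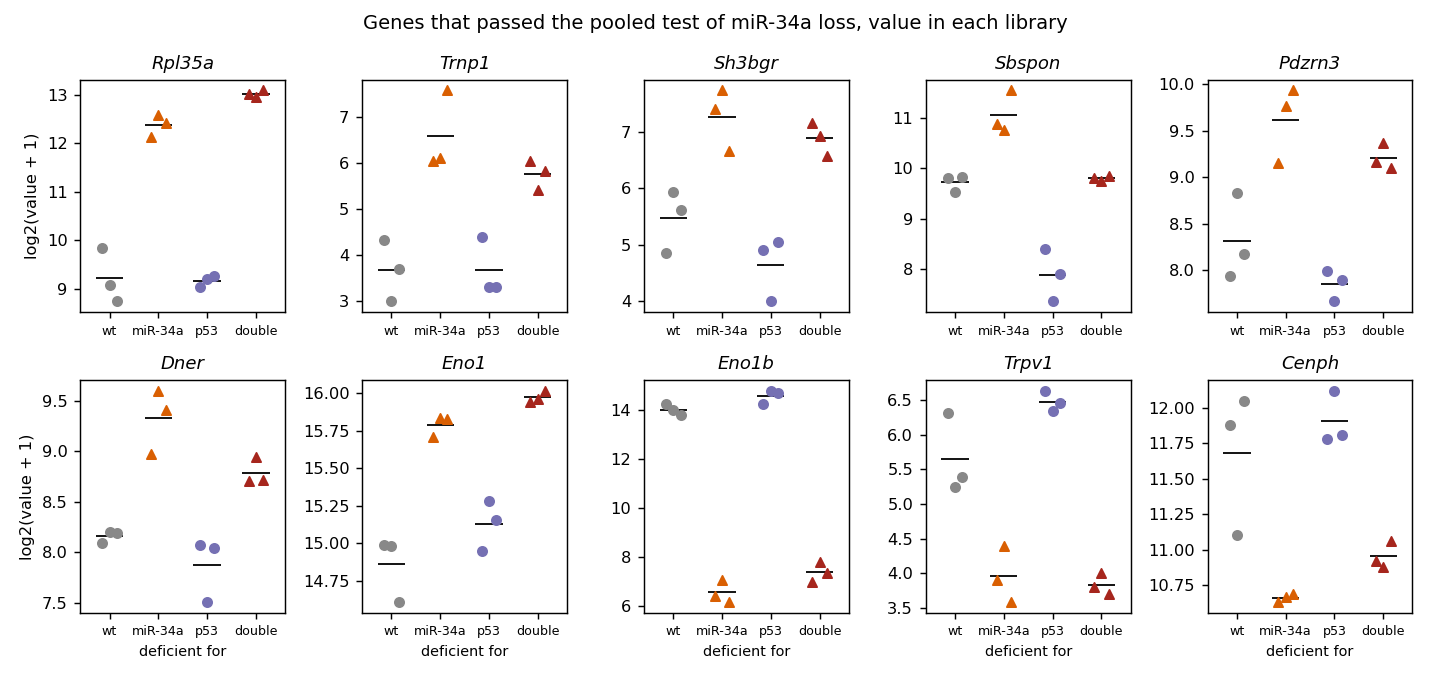
Value of 10 of the 11 genes that passed the pooled test in each of the 12 libraries, as log2(value + 1), by genotype (grey circles wt, orange triangles miR-34a deficient, purple circles p53 deficient, dark red triangles double deficient; horizontal lines are genotype means of 3 libraries, and the y axes do not start at 0). Triangles, the libraries lacking miR-34a, lie above both sets of circles for Rpl35a, Trnp1, Sh3bgr, Pdzrn3, Dner and Eno1 and below them for Eno1b, Trpv1 and Cenph.

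Eno1 (ENSMUSG00000063524; chromosome 4, 150236721 to 150248879), the glycolytic enzyme alpha-enolase, rose and its copies fell. Eno1 ran from 53416 to 66176 in the 6 libraries lacking miR-34a, with a median of 60599.5, and from 24964 to 39717 in those with it, with a median of 32382.5. The arms did not overlap, and the difference was 0.89 ± 0.09 (adjusted p = 0.00197). Eno1b is a copy of it on chromosome 18. In tumours with p53 its values were 19469, 16386 and 14333 (wt) against 85, 135 and 71 (miR-34a deficient), and in tumours without p53 they were 19687, 28557 and 26524 (p53 deficient) against 126, 225 and 165 (double deficient). It fell by 7.33 ± 0.19 (adjusted p = 4.68e-10), from a range of 14333 to 28557 to one of 71 to 225. The processed pseudogene Gm4735 (chromosome 2, 80837141 to 80838442), named here after its values were seen, ran from 3965 to 15850 with miR-34a and from 20 to 208 without. It fell by 6.67 ± 0.46 (adjusted p = 2.44e-05).

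These 3 genes are near-identical in part of their sequence, so how the reads were assigned between them is uncertain; it was not tested. Eno1b shares 76.4% and Gm4735 83.3% of their 50-base windows exactly with Eno1 transcripts (GENCODE M21), while 25.3% and 19% of the windows of Eno1 are shared with them. The sum of the 3, also chosen after their values were seen, ran from 53655 to 66489 without miR-34a and from 43262 to 84124 with it. Those ranges overlap, and the sums differed by -0.04 over both strata, by 0.07 in tumours with p53 and by -0.15 in tumours without. Eno1 lies 0.168 Mb from Mir34a.

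**Figure D2:**
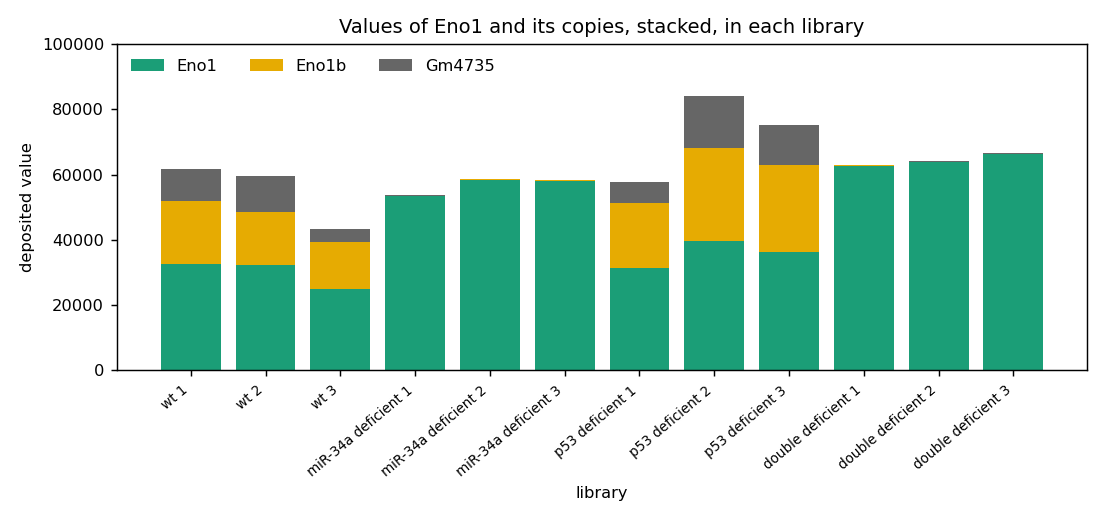
Deposited values of Eno1 (green), Eno1b (yellow) and Gm4735 (grey), stacked for each of the 12 libraries. In the 6 libraries lacking miR-34a nearly the whole bar is Eno1, while the total height of the bars, 53655 to 66489 without and 43262 to 84124 with miR-34a, overlaps between the arms.

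The other 5 genes that rose have no such copy named here. Sbspon (chromosome 1, 15853862 to 15892722), a secreted protein with somatomedin B and thrombospondin domains, had values of 900, 735 and 914 in wt and 1889, 1744 and 3005 in miR-34a deficient tumours. Without p53 its values were 338, 163 and 237 in p53 deficient and 895, 866 and 924 in double deficient tumours. Within each stratum the arms were apart, yet double deficient tumours only reached the level of wt tumours. The pooled difference was 1.63 ± 0.20 (adjusted p = 0.0103).

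Trnp1 (chromosome 4, 133491100 to 133498550), a nuclear protein studied in neural progenitor cells, had low values: 19, 7 and 12 in wt, 65, 68 and 190 in miR-34a deficient, 20, 9 and 9 in p53 deficient and 65, 42 and 56 in double deficient tumours. Its arms did not overlap, and it rose by 2.50 ± 0.37 (adjusted p = 0.0318). Sh3bgr (chromosome 16, 96200450 to 96228935), a small protein named for binding SH3 domains and its glutamic acid-rich end, ran from 94 to 211 without and from 15 to 60 with miR-34a. It rose by 2.01 ± 0.29 (adjusted p = 0.0299).

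Pdzrn3 and Dner both encode proteins of cell signalling. Pdzrn3 (chromosome 6, 101149609 to 101377897), a ubiquitin ligase with PDZ domains, had values of 245, 456 and 288 in wt, 570, 869 and 979 in miR-34a deficient, 253, 202 and 238 in p53 deficient and 573, 661 and 549 in double deficient tumours. It rose by 1.33 ± 0.18 (adjusted p = 0.0213). Dner (chromosome 1, 84369839 to 84696221), a membrane protein with EGF-like repeats that can bind Notch, ran from 417 to 774 without and from 181 to 293 with miR-34a and rose by 1.04 ± 0.15 (adjusted p = 0.0318). For both genes the lowest library lacking miR-34a lay above the highest library with it.

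The other 2 genes that fell are Trpv1 and Cenph. Trpv1 (chromosome 11, 73234292 to 73261242), the ion channel opened by heat and capsaicin, had values of 78, 37 and 41 in wt, 14, 20 and 11 in miR-34a deficient, 98, 80 and 87 in p53 deficient and 13, 15 and 12 in double deficient tumours. It fell by 2.16 ± 0.28 (adjusted p = 0.0148), and the arms did not overlap. Cenph (chromosome 13, 100759674 to 100775899), a centromere protein of the kinetochore, which holds chromosomes to the spindle, ran from 1586 to 2138 without and from 2204 to 4452 with miR-34a. It fell by 0.98 ± 0.14 (adjusted p = 0.0318), and its highest library without miR-34a was only just under wt 2, the lowest with it.

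How firmly these calls stand differed from gene to gene. When each library was left out in turn, Rpl35a, Eno1, Eno1b and Gm4735 passed limma's test all 12 times, and Sbspon failed only without double deficient 3 (adjusted p = 0.0512). Trpv1 failed without p53 deficient 2 or 3 (0.0528 and 0.0618) and without double deficient 2 or 3 (0.0647 and 0.0725). The other 5 mostly failed. Pdzrn3 passed only without wt 1, wt 2, miR-34a deficient 1 or p53 deficient 1 (adjusted p up to 0.0776), and Trnp1 only without wt 1, wt 2, miR-34a deficient 3 or p53 deficient 1 (up to 0.1004). Sh3bgr passed only without wt 2, miR-34a deficient 3 or p53 deficient 1 (up to 0.0924), Dner only without wt 2, miR-34a deficient 1 or p53 deficient 1 (up to 0.0942) and Cenph only without wt 2 or p53 deficient 1 (up to 0.106). In a fit that also held the Y-linked level, Rpl35a, Eno1, Eno1b and Gm4735 passed, while Sbspon (0.0801), Pdzrn3 (0.0677), Dner (0.0801), Trpv1 (0.0913), Trnp1 (0.0936), Sh3bgr (0.169) and Cenph (0.169) did not. Among the 7 libraries with a Y-linked level above 1, Rpl35a, Eno1b and Gm4735 passed, and Eno1 (1.04, adjusted p = 0.554) and the other 7 did not. No double deficient library is among these 7. The difference there rests on miR-34a deficient 2 and 3 against wt 2 and 3, and says nothing of tumours without p53. All 11 genes kept their direction under every alternative that gave them a value.

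None of the published targets of miR-34a passed the test. Of 69 listed genes 68 were tested; 8 had a higher and 5 a lower value at an unadjusted p under 0.05 (11.8% and 7.35%), near the 8.56% and 4.42% of all genes. Their median difference was 0.03, against 0.04 over all genes, and 43 of 68 had the same sign in both p53 strata (63.2%, against 56.1% of all genes). None of the 10 changed genes with an annotated 3′ UTR holds either seed match. Of all tested genes with such a UTR only 15.8% hold one, so its absence from 10 genes says little.

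Among receptors and ligands (20 tested, median 0.28, 14 above 0), Inhbb stood highest. It encodes the beta B subunit of activins and inhibins and holds the 7mer-m8 site printed above. Its values were 270, 365 and 165 in wt, 449, 435 and 614 in miR-34a deficient, 208, 131 and 280 in p53 deficient and 871, 414 and 649 in double deficient tumours. No library lacking miR-34a was under a library with it, but the difference of 1.30 ± 0.27 did not pass (adjusted p = 0.113). Il6ra, the interleukin-6 receptor, holds an 8mer and had values of 122, 370 and 103 in wt, 205, 218 and 385 in miR-34a deficient, 254, 63 and 125 in p53 deficient and 179, 224 and 145 in double deficient tumours. Here wt 2 was nearly as high as the highest library without miR-34a, and the difference was 0.57 ± 0.38 (adjusted p = 0.540). The mast and stem cell receptor Kit differed by 0.69 ± 0.27 (adjusted p = 0.317), the macrophage receptor Csf1r by 0.52 ± 0.24 (0.389) and the receptor kinase Axl by 0.46 ± 0.24 (0.441). Notch1, its ligand Jag1, the growth factor receptors Pdgfra and Met and the hyaluronan receptor Cd44 differed by 0.30, 0.29, 0.41, 0.20 and 0.05. L1cam (-0.65) and Igf1r (-0.58) were on the other side of 0, at an unadjusted p under 0.05.

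Cell cycle targets lay slightly the other way. Of 14 tested, 12 were below 0 with a median of -0.12. Ccne2, cyclin E2 of the start of S phase, holds an 8mer and yet was lower in every library without miR-34a (554 to 759, median 631) than in any with it (809 to 1209, median 826.5). Its difference of -0.44 ± 0.12 did not pass (adjusted p = 0.188). Cdk6, the kinase partner of D cyclins, had values of 831, 893 and 628 in wt and 1663, 1667 and 1232 in miR-34a deficient tumours, and 852, 1578 and 1183 in p53 deficient and 1029, 789 and 904 in double deficient tumours. Its differences were 0.96 ± 0.24 with p53 and -0.37 ± 0.24 without; the difference between these did not pass (limma, adjusted p = 0.378). Cdk4, Ccnd1, E2f3, Myc and the MYC partner Max differed by 0.13, -0.12, -0.08, -0.06 and -0.20.

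**Figure D3:**
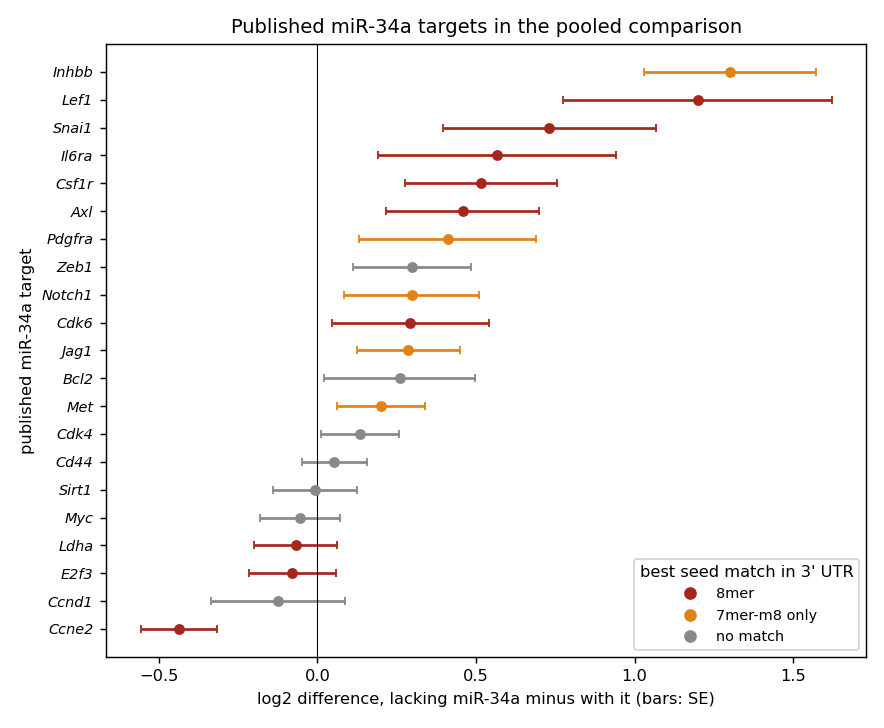
Log2 difference (lacking minus having miR-34a; points) with its standard error (bars) for 21 published miR-34a targets, coloured by the best seed match in the annotated 3′ UTR (red 8mer, orange 7mer-m8 only, grey no match). Inhbb at 1.30 and Lef1 at 1.20 are at the top and Ccne2 at -0.44 at the bottom, and genes with an 8mer lie on both sides of 0.

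Targets tied to survival, chromatin, mesenchymal change and Wnt signalling had medians near 0 as well (-0.01 over 13 genes and 0.06 over 21). Lef1, a transcription factor of the Wnt pathway with an 8mer, had values of 970, 1836 and 865 in wt, 2127, 1552 and 3137 in miR-34a deficient, 685, 96 and 468 in p53 deficient and 1287, 651 and 808 in double deficient tumours. The arms overlapped (1.20 ± 0.42, adjusted p = 0.277), and p53 deficient 2 was the lowest of all. Snai1, which represses E-cadherin, ran from 62 to 102 without and from 18 to 108 with miR-34a (0.73 ± 0.34, adjusted p = 0.382). The mesenchymal factor Zeb1, the survival gene Bcl2, the deacetylase Sirt1 and the lactate dehydrogenase gene Ldha differed by 0.30, 0.26, -0.01 and -0.07. Axin2 (0.70 ± 0.27), a feedback inhibitor of Wnt signalling, and Ctnnb1 (0.20 ± 0.08), beta-catenin, did not pass (adjusted p = 0.305 and 0.327).

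Genes with and without a seed match were set side by side over all genes. Of 15863 tested genes with an annotated 3′ UTR, 869 (5.48%) hold an 8mer, 1635 (10.3%) only a 7mer-m8 and 13359 (84.2%) neither. Their median differences were 0.03, 0.03 and 0.03. By stratum, genes with either match had a median of 0.06 with p53 and 0.02 without, against 0.01 and 0.04 for genes with none. At a mean of at least 50 the pooled medians were 0.02 with an 8mer, 0.02 with a 7mer-m8 and -0.0024 with neither. At an unadjusted p under 0.05, 11.4% of 8mer genes were higher and 4.37% lower, against 8.65% and 4.93% of genes with no match. Genes with a match have longer 3′ UTRs (a median of 2368 bases with an 8mer, 892 with none). Among 3′ UTRs over the median length the shares of higher genes were 12.4% with an 8mer and 8.71% without a match. Of the 68 published targets 38 hold a match, with a median of 0.05, and the 30 others had a median of -0.03. These shares are descriptions, since genes are not independent replicates.

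Genes next to Mir34a on chromosome 4 showed differences in both directions. Within 0.5 Mb, 9 of 14 tested genes had an unadjusted p under 0.05 (64.3%), 7 higher and 2 lower, against 21.9% of 64 genes within 2 Mb and 15% of 1265 genes of that chromosome beyond 5 Mb. Only Eno1 of these 14 passed the test over all genes. Gpr157, a G protein-coupled receptor gene whose start is 0.0188 Mb away, had values of 29, 25 and 22 in wt, 89, 47 and 56 in miR-34a deficient, 47, 16 and 26 in p53 deficient and 60, 41 and 42 in double deficient tumours, a difference of 1.02 ± 0.29 (adjusted p = 0.195). Without p53 deficient 1 its arms would not overlap. Named after their values were seen, as the genes within 0.5 Mb at an unadjusted p under 0.05, Spsb1, Clstn1, Pik3cd, H6pd and Gm13067 were higher by 0.69, 0.65, 0.59, 0.58 and 1.93, and Car6 and Tmem201 differed by -1.23 and -0.30. None of these 8 genes passed.

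Markers of vessels had higher values in tumours lacking miR-34a, though no single marker passed. All 18 endothelial genes were above 0, 17 of them at an unadjusted p under 0.05 (94.4%, against 8.56% of all genes), with a median of 0.94. The median was 0.93 with p53 and 0.91 without. Tie1, a receptor of the angiopoietin system, ran from 118 to 203 without and from 45 to 108 with miR-34a (1.10 ± 0.23, adjusted p = 0.113). Flt1, a receptor of vascular endothelial growth factor (VEGF), ran from 223 to 688 and from 91 to 248 (1.09 ± 0.23, adjusted p = 0.113). Tie1 did not overlap between the arms and Flt1 did only through p53 deficient 1. The junction genes Cldn5, Cdh5 and Pecam1 differed by 2.65, 1.10 and 0.77, the VEGF receptor Kdr by 0.83 and the transcription factors Sox18 and Erg by 1.92 and 0.76. By library, the mean log2 value over the list was 7.65 to 8.28 without and 6.31 to 7.52 with miR-34a, which do not overlap. The arms did overlap in the median log2 value, where double deficient 3 (7.25) lay under wt 2 (7.35) and p53 deficient 1 (7.40), and in the summed values (6211 to 10430 and 2156 to 6224). When single libraries were left out, 15 to 18 of the 18 stayed at an unadjusted p under 0.05, and 16 did in a fit that also held the Y-linked level. Among the 7 libraries with a Y-linked level above 1 it was 5, with a median of 0.83. Here and in the lists below that setting compares only tumours with p53, since no double deficient library is left in it. In tumour pieces such as these, a larger share of a cell type and more RNA per cell of that type cannot be told apart.

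Other cells of the tumour bed leaned the same way with fewer genes. Of 18 smooth muscle and pericyte genes 17 were above 0, against 55.7% of all genes, with a median of 0.45 (0.71 with p53, 0.17 without). At an unadjusted p under 0.05, 7 were higher (38.9%, against 8.56% of all genes). The 7 became 4 without wt 1, wt 3, miR-34a deficient 1 or 2, p53 deficient 3 or double deficient 1, 3 in a fit with the Y-linked level and 1 among libraries with that level above 1. Smtn, smoothelin of contractile muscle, did not overlap between the arms (994 to 1132 without, 694 to 945 with miR-34a; 0.33 ± 0.10, adjusted p = 0.215). The pericyte genes Cspg4 and Rgs5 differed by 1.21 and 1.00. Of 26 fibroblast and matrix genes 23 were above 0, with a median of 0.51, and 7 were higher at an unadjusted p under 0.05 (26.9%). The 7 became 13 without wt 2, 11 without double deficient 3, 4 in a fit with the Y-linked level and 0 among libraries with that level above 1. Vim, the mesenchymal filament vimentin, differed by 0.71 ± 0.20 (adjusted p = 0.186), fibronectin (Fn1) by 0.92 and the collagens Col1a1 and Col3a1 by 0.74 and 0.45. Twist1, at -1.07, was on the other side.

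The 4 immune lists had medians above 0, and no member passed the pooled test. The median of the 12 mast cell genes was 1.25, and all of them were above 0. At an unadjusted p under 0.05, 7 were higher (58.3%, against 8.56% of all genes). This count was 1 without p53 deficient 2 or 3, 2 without miR-34a deficient 3 or double deficient 1, 3 without wt 3, 4 without miR-34a deficient 2 or double deficient 3 and 11 without wt 1. With the Y-linked level in the fit it was 1, and among libraries with that level above 1 it was 4. Their medians were 0.51 with p53 and 2.07 without. Double deficient 1 had the highest mean log2 value over these genes, 10.70, against 6.45 to 9.77 in the other 11 libraries. The tryptase Tpsb2 ran from 210 to 2111 without and from 65 to 558 with miR-34a (1.91 ± 0.63, adjusted p = 0.249). Macrophage and monocyte genes were above 0 in 16 of 18 with a median of 0.34 (0.16 without double deficient 1), with C1qb at 0.64 and Ctss at -0.48. At an unadjusted p under 0.05, 2 were higher (11.1%, near the 8.56% of all genes) and 1 lower. Neutrophil genes were above 0 in 13 of 15 with a median of 0.71 (1.14 without wt 2), with S100a9 at 1.84. Their medians were 0.22 with p53 and 0.88 without. Only 1 was higher at an unadjusted p under 0.05 (6.67%, against 8.56% of all genes) and 1 lower. The median of their summed values was lower without miR-34a (10226.5) than with it (14337), over ranges that overlap. Ly6g, a surface protein of neutrophils, was at -1.19; it fell by 2.43 in tumours without p53 (adjusted p = 0.00436). T and B cell genes were low in all libraries, above 0 in 10 of 16 and had a median of 0.30 (0.02 without p53 deficient 2). Of the 16, 2 were higher at an unadjusted p under 0.05 (12.5%). Zap70, a T cell kinase, reached 507 in miR-34a deficient 3 against at most 43 in the other 11 libraries.

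Markers of mature epithelium pointed down and stem cell and Wnt genes up, without a gene that passed the pooled test. Of 30 colonocyte genes tested, those of the absorptive cells at the surface, 27 were below 0 and 15 had a lower value at an unadjusted p under 0.05 (50%, against 4.42% of all genes), with a median of -0.84. The 15 became 9 without p53 deficient 1 and 8 without double deficient 3. Atp12a, a proton pump of the surface cells, had values of 41489, 53979 and 51628 in wt, 23213, 51587 and 7195 in miR-34a deficient, 55233, 119914 and 34757 in p53 deficient and 1477, 4516 and 1233 in double deficient tumours. Its low values were mostly in double deficient tumours (-3.09 ± 0.70, adjusted p = 0.126). In tumours without p53 it fell by 4.92 (adjusted p = 0.0094), and with 1 mean per genotype the pooled difference passed too (adjusted p = 0.0244). The water channel Aqp8, the chloride exchanger Slc26a3 and the peptidase Mep1a differed by -3.01, -2.43 and -1.45, while the sodium exchanger Slc9a3 was at 2.70. Emp1, a membrane protein of the epithelium, ran from 10145 to 23641 without and from 22948 to 84780 with miR-34a (-1.17 ± 0.28, adjusted p = 0.151). The list's median was -0.64 with p53 and -1.32 without, and its summed values ran from 61082 to 250852 without and from 217361 to 318435 with miR-34a. Among the 7 libraries with a Y-linked level above 1, none of them double deficient, the median was -0.39. In these no member had a lower value at an unadjusted p under 0.05.

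Goblet and hormone cell genes were mostly below 0 too, with a wide spread, while tuft cell genes were mostly above 0. Goblet cell genes, which make the mucus layer, had a median of -0.88 (-0.40 with p53, -1.26 without), with 18 of 20 below 0. At an unadjusted p under 0.05, 6 were lower (30%, against 4.42% of all genes). The 6 became 12 without miR-34a deficient 2, 10 without wt 2, 3 without wt 3 and 2 without miR-34a deficient 3, p53 deficient 1, double deficient 1 or double deficient 3, 4 in a fit with the Y-linked level and 0 among libraries with that level above 1. Retnlb, a secreted antibacterial protein, had values of 5662, 4796 and 10451 in wt, 3548, 7650 and 621 in miR-34a deficient, 7128, 1449 and 5455 in p53 deficient and 12, 95 and 17 in double deficient tumours. As with Atp12a, the lowest values were those of double deficient tumours (-4.22 ± 1.04, adjusted p = 0.155). In tumours without p53 it fell by 7.09 (adjusted p = 0.00854), and with 1 mean per genotype the pooled difference passed (adjusted p = 0.0276). The mucus proteins Fcgbp and Muc2 and the trefoil factor Tff3 differed by -1.15, -1.09 and -1.55. The median of 20 hormone cell genes was -0.70 (-0.15 with p53, -0.94 without). Of these 16 were below 0, among them the peptide Insl5 (-2.72) and the granule protein chromogranin B (Chgb, -1.39), and 4 were above 0. At an unadjusted p under 0.05, 3 were lower (15%, against 4.42% of all genes) and 1 higher (5%, against 8.56%). The 3 became 0 to 6 with single libraries left out and 0 in a fit with the Y-linked level. Tuft cell genes, from the chemosensory cells, were above 0 in 12 of 15 with a median of 0.54 (0.07 with p53, 0.97 without). Avil, a tuft cell actin regulator, differed by 2.13 ± 0.54 (adjusted p = 0.167), and Plcg2 by 0.54 ± 0.12 (0.114), with 1305 to 1876 without and 857 to 1271 with miR-34a. Without double deficient 1 the tuft median was -0.03.

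Genes of intestinal stem cells and of the Wnt response had a median of 0.69, with 18 of 22 above 0. At an unadjusted p under 0.05, 12 were higher (54.5%, against 8.56% of all genes). Leaving out single libraries gave 8 to 13, a fit with the Y-linked level gave 8, and the libraries with that level above 1 gave 1, with a median of 0.49. The Wnt antagonist Dkk3 had values of 1407, 922 and 556 in wt, 2439, 1291 and 4315 in miR-34a deficient, 483, 309 and 202 in p53 deficient and 2875, 786 and 1450 in double deficient tumours. Within each stratum most libraries without miR-34a were higher, but wt 1 lay above miR-34a deficient 2 (1.83 ± 0.39, adjusted p = 0.113). The antagonists Wif1 and Notum differed by 1.76 and 1.78, Nkd1 and Apcdd1 by 1.52 and 1.56, and the stem cell receptor Lgr5 by 0.68, while the stem cell gene Olfm4 was at -0.63. The list's median was 0.54 with p53 and 1.11 without. Genes of epithelial junctions and keratins were below 0 in 21 of 22, with a median of -0.21, a keratin 8 (Krt8) difference of -0.48 and one of -0.22 for the adhesion gene Epcam. Of the 22, 5 had a lower value at an unadjusted p under 0.05 (22.7%, against 4.42% of all genes). The 5 became 3 without miR-34a deficient 3 or p53 deficient 2 and 2 without double deficient 3 or in a fit with the Y-linked level. Among libraries with that level above 1 there were 0, and the median was -0.03.

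**Figure D4:**
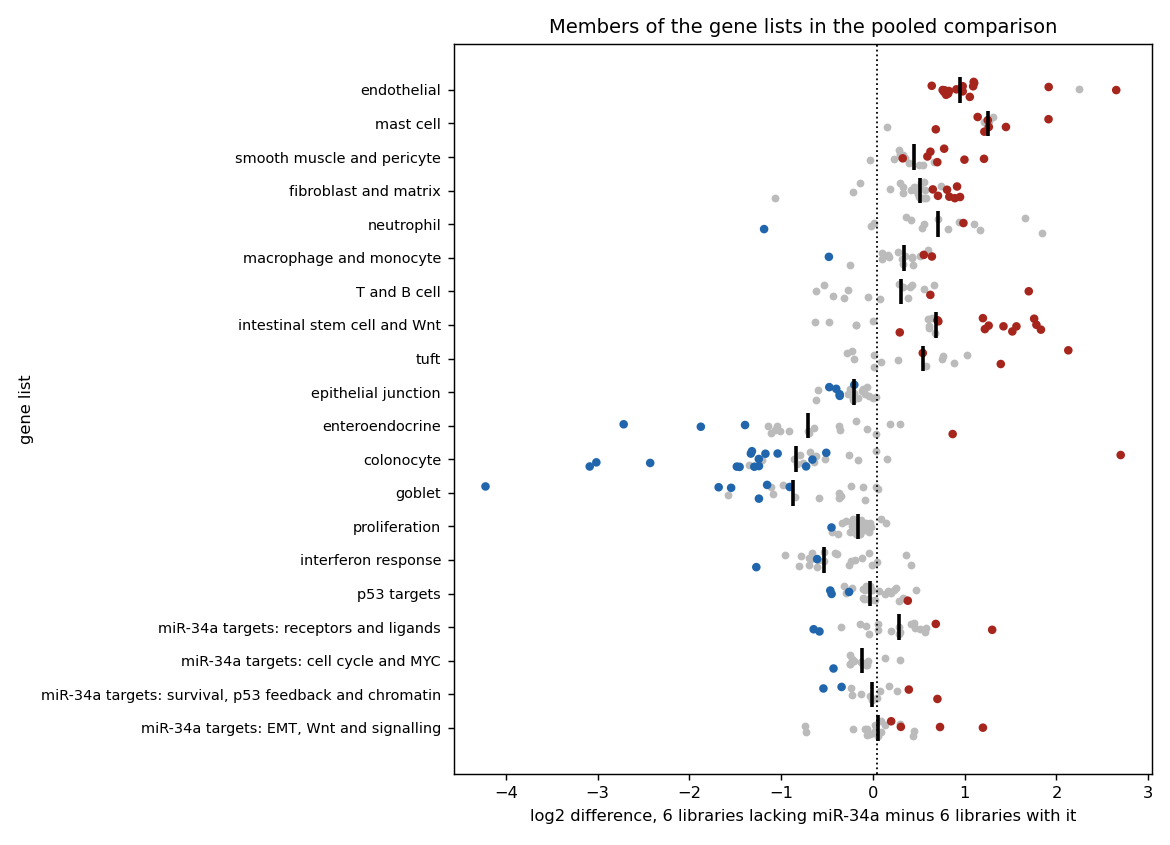
Log2 difference (lacking minus having miR-34a) of each tested member of 20 gene lists; red and blue points had an unadjusted p under 0.05 and were higher or lower, grey points did not, black bars are list medians and the dotted line is the median of all genes (0.04). Endothelial genes all lie right of 0 (median 0.94), colonocyte and goblet genes mostly left (-0.84 and -0.88), and the 4 groups of published miR-34a targets lie around 0.

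In the remaining lists no gene but Eno1 passed. p53 target genes had a median of -0.03, with 12 of 27 above 0; Btg2 and Pmaip1 (Noxa, which promotes cell death) were at -0.46 and -0.45 and Sesn1 at 0.38, and none passed. Proliferation genes were below 0 in 30 of 32, against 44.3% of all genes. At an unadjusted p under 0.05, only 1 was lower (3.1%, near the 4.42% of all genes). The sign was the same in both strata for 14 of 32 (43.75%, against 56.1% of all genes). The median of this list was -0.16, which was -0.34 with p53 and 0.01 without. The median was -0.01 without wt 3 and -0.51 among libraries with a Y-linked level above 1. Ccna2, cyclin A2, differed by -0.46 ± 0.15 (adjusted p = 0.242). Interferon response genes had a median of -0.53, which was -0.25 without wt 3 and -0.74 without wt 2. The mean log2 value of wt 3 over these genes was 10.07, against 7.66 to 9.45 in the other 11 libraries. Their lowest member Xaf1, a partner of a cell death inhibitor, was at -2.49 with p53 and -0.05 without, and this difference between strata did not pass (adjusted p = 0.427). In the interleukin-6, STAT3 and plasminogen list the median was 0.19, with the urokinase receptor Plaur at -0.81 ± 0.22 (adjusted p = 0.180) and the protease inhibitor Serpine2 at 1.28 ± 0.50 (0.311). Hypoxia and glycolysis genes (median -0.07) held 1 gene that passed, Eno1, and genes of the mitochondrial genome had a median of 0.00.

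Both p53 strata can be set side by side, since they share no library. The test found 8 changed genes with p53 (0.0375%) and 129 without p53 (0.605%), 48 higher and 81 lower. At an unadjusted p under 0.05 there were 1299 (6.09%) and 3226 (15.1%). The count with p53 was 4 without wt 1 or wt 3 and 12 without wt 2, and the count without p53 was 27 without double deficient 3 and 294 without p53 deficient 1. In a fit with the Y-linked level they were 5 and 7. Over all genes the differences had the same sign in 56.1%. Of the 286 genes with an unadjusted p under 0.01 in tumours with p53, 71.3% had the same sign in tumours without it, and of the 1145 such genes without p53, 67.3% had the same sign with it. The correlation across genes was 0.24 (Pearson's r over 21322 genes, which are not independent replicates), and 0.32 over the 14330 genes whose mean reached 50. Rpl35a, Eno1, Eno1b and Gm4735 passed in both strata. The p-values of both strata come from 1 fit to all 12 libraries and share its estimate of the spread, so they are not independent. Cdk6 and Xaf1 were further from 0 with p53, and Atp12a, Retnlb and Ly6g without it, but none of these 5 passed the test of that difference (adjusted p = 0.141 to 0.427).

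**Figure D5:**
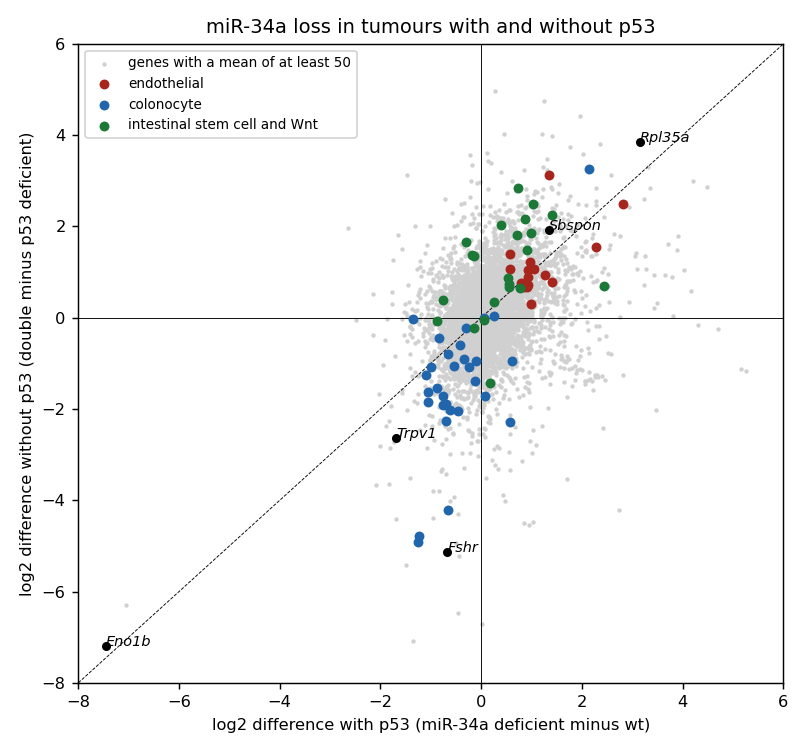
Log2 difference with miR-34a loss in tumours with p53 (x axis) and without p53 (y axis) for genes whose mean reached 50 (grey), with endothelial (red), colonocyte (blue) and stem cell and Wnt genes (green), and 5 genes in black; the dashed line marks equal differences. Endothelial genes all lie in the upper right, colonocyte genes mostly in the lower left and below the dashed line, and Fshr far below it.

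A direct test of whether the difference with miR-34a loss depended on p53 called 5 of 21322 genes (interaction term in limma, adjusted p under 0.05, 0.0234%), all lower in double deficient tumours, and 1683 (7.89%) had an unadjusted p under 0.05. The 5 became 10 without p53 deficient 1 and 2 without wt 1, miR-34a deficient 2, p53 deficient 2 or 3, or double deficient 2 or 3. Fshr (chromosome 17, 88984952 to 89200675), the receptor of follicle-stimulating hormone, had values of 2311, 2737 and 1286 in wt, 1187, 1701 and 1002 in miR-34a deficient, 1321, 1712 and 1264 in p53 deficient and 58, 33 and 32 in double deficient tumours. Only the double deficient libraries stood apart, and the interaction was -4.47 ± 0.46 (adjusted p = 0.00779). The other 4, named after their values were seen, are the pseudogenes Gm10093, Gm12196 and Gm15195 and the noncoding RNA gene Gm7125, with interactions of -4.79, -4.42, -6.73 and -4.49. In all 4 the double deficient libraries were under those of every other genotype. Phactr4, a regulator of phosphatase and actin, Gpr110 and Fam124a came next (adjusted p = 0.0916 for each) and did not pass, nor did Reg1, Ckap4, Paox and Faah on the other side. The interaction was read on libraries that differ in Y-linked level along the same line, and with that level as a covariate 1 gene passed; the part of this difference in the result was not tested further.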

How the data were processed

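Total RNA was taken from the tumours with a QIAGEN kit and sequenced on libraries made by Illumina protocols, per the labels' protocols. The authors deposited 1 table with a score for each gene symbol and library, which from its values is a normalized level rounded to whole numbers. Per the submitters' processing notes, mm10 was the mouse genome used. How reads were aligned, counted and normalized, and whether strand was used, is not given in the sources used here. Groups come from the sample titles. Columns of no sample in use numbered 0.

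The plan allowed for counts. Because the values are rounded scores, limma 3.58.1 (R 4.3.3) was run on log2(value + 1) with a mean-dependent trend, miR-34a and p53 status as additive factors and 9 residual degrees of freedom. A mean under 1 excluded a gene, p-values are 2-sided and Benjamini-Hochberg adjusted over 21322 genes, and changed means an adjusted p under 0.05. Strata and the interaction came from 1 mean per genotype (8 residual degrees of freedom). The code was tested on simulated data. With whole-number scores and no counts, no counting interval is given.

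The members and lists were chosen with earlier results of these data known. Of 492 members in 26 lists, 487 are in the table and 485 were tested; lists have no test, only counts and medians beside those of all genes. Ms4a1, Clca4a, Wnt1, Il25 and Stfa2 were not matched by symbol. Genes named are the checks of the labels, the 12 largest changes in each direction (all, where fewer) among genes that passed, have a named symbol and do not overlap within either stratum, the 5 of smallest p in a direction with fewer than 5, the 2 of smallest p in each list, 21 published targets and the 5 of smallest interaction p in each direction. A gene that the rule names and another list member are not reported here. List members given with only a difference were picked after their values were seen. Positions and 3′ UTRs are from GENCODE M21 (GRCm38), matched by symbol for 20785 of 21322 genes (97.5%); microRNA sequences are from RefSeq. Replicate numbers were not treated as pairs. Within genotypes the values hold 7 of 8 possible directions of variation: the next singular value is 0.179 after 32.2 (9791 genes whose mean reached 500). Alternatives were other scalings, filters, pseudocount and variance settings, a replicate block, the Y-linked level, the run code and the missing direction as covariates, and each library left out.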

Additional observations from a re-analysis of the deposited data

Results flagged for a closer look

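In 11 of 190 groups of 6 libraries, 1 library lay apart from the other 5 by a gap, relative to the group's range, above Dixon's 95% critical value, which chance alone passes in about 5% of groups. Among genes that passed the pooled test, miR-34a deficient 3 was high in Trnp1 (190), p53 deficient 2 low in Dner (181) and wt 2 low in Cenph (2204). Among published targets wt 3 was high in Ccne2 (1209), wt 2 high in Zeb1 (168) and double deficient 2 low in Max (3685). Among surface epithelial genes p53 deficient 2 was high in Atp12a (119914) and p53 deficient 3 in Emp1 (84780). The T cell kinase gene Zap70 (507) and the Y-linked gene Eif2s3y (17) were high in miR-34a deficient 3. Reg1 was at 1 in p53 deficient 3 and 0 in the 5 other libraries with miR-34a.

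The difference with miR-34a loss depended on p53 status by the interaction test in Fshr (-4.47), Gm10093 (-4.79), Gm12196 (-4.42), Gm15195 (-6.73) and Gm7125 (-4.49, log2), all lower without p53 than with it.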

How the results depend on the processing

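The number of genes changed with miR-34a loss was 11. It was 73 with 1 mean per genotype (31 higher and 42 lower, all 11 among them), 6 with no p53 factor, 7 with the run code and 6 with the missing direction as a covariate. It was 4 in a fit that also held the Y-linked level and 4 among libraries with a Y-linked level above 1 (Rpl35a, Eno1b and Gm4735 among them, not Eno1). The latter setting holds no double deficient library and so compares only tumours with p53. Leaving out single libraries gave 4 (without double deficient 3) to 43 (without wt 2), with 28 without p53 deficient 1, 6 without wt 3, miR-34a deficient 2 or p53 deficient 2 and 5 without p53 deficient 3 or double deficient 2. The other alternatives gave 8 to 16. The interaction, 5 genes, gave 1 with the Y-linked level, 2 with the missing direction and 2 to 10 with single libraries left out. The 8 genes changed with p53 became 5 after quantile normalization, without a variance trend, with the Y-linked level or with the missing direction, and 4 to 12 with libraries left out. The 129 changed without p53 became 57 without a variance trend, 7 with the Y-linked level, 47 with the missing direction and 27 to 294 with libraries left out. The cause of these moves was not tested.

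Of 2649 values of 95 named genes under 28 settings, 2539 kept their side of the threshold, 90 lost and 20 gained the call. Among genes that passed the main test 0 values reversed direction. A gene that did not pass could change sign and still count among the 2539. Sirt1, for instance, kept its direction in 22 of 28 settings. Rescaling moved the median of all genes by at most 0.1. Replicate numbers were not treated as pairs: 7 of 18 pairs had a correlation over 0.1, from -0.21 to 0.50, and 4 of 12 libraries were closest to their own number. A replicate block gave 8 genes for the pooled difference, 3 for the interaction, 6 with and 141 without p53. Alternatives for the strata and for counts of list members, and the look at p53 deficient 2, were chosen after seeing the data. Interaction and strata were not fitted with no p53 factor or among libraries with a Y-linked level above 1. No double deficient library is left among the latter, so the difference in tumours without p53 has no value there.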
